A study of Mus musculus with 6 samples.

Results

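The dendritic cells of mouse synovium, the lining tissue of joints, were taken from single-cell RNA sequencing of whole dissociated synovium. The cells were chosen by measured values: a cell was counted as dendritic when it held at least 2 UMIs in sum of Flt3, Xcr1, Clec9a, Zbtb46 and Ccr7 and at least 10 UMIs of the class II genes H2-Aa, H2-Ab1 and Cd74. A UMI (unique molecular identifier) marks 1 captured RNA molecule. Such a cell also had at most 3 UMIs of C1qa and C1qb, at most 1 of the B cell genes Cd79a and Cd79b, and at most 10% mitochondrial UMIs. In all, 188 of 18077 cells met these conditions. These 12 genes chose the cells, so their values are given as descriptions without a test.

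Dendritic cells take up antigen in tissues, present its peptides on class II and class I molecules, and carry it to lymph nodes for T cells to read. Conventional dendritic cells fall into a cDC1 branch, which depends on IRF8 and BATF3 and excels at presenting antigen of dead cells to CD8 T cells, and a cDC2 branch, which mainly serves CD4 T cells. Cells of either branch that mature gain CCR7, the receptor that guides them along lymphatic vessels, together with costimulatory molecules.

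The study concerned Notch3 signalling in the synovial fibroblasts of inflammatory arthritis, and each group was 1 library from 10 pooled mice with 7000 cells loaded. Libraries came from Notch3-/- and wild-type mice with K/BxN serum-transfer arthritis, in which antibody-rich serum inflames the joints, from arthritic mice given a Notch3-blocking antibody or an isotype control antibody, and from healthy Notch3-/- and wild-type mice. The sort kept all living cells, with no marker for a given lineage, and the libraries read the 3' end of transcripts. The labels give neither the genotype of the antibody-treated mice nor the exons that the knockout removes, so the 3' reads do not check the deletion.

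With 1 library per group, any difference inside a pair of libraries had no replicate check, and all intervals below cover counting error only. Dendritic cells numbered 25 in the arthritic Notch3-/-, 43 in the arthritic wild-type, 32 in the anti-Notch3, 20 in the isotype, 39 in the healthy Notch3-/- and 29 in the healthy wild-type library. Together they held 1297612 UMIs, between 121399 and 260573 per library. Library pairs shared 5 to 29 cell barcodes, and no barcode was dendritic in both libraries of a pair; in some pairs 1 dendritic barcode also occurred among the other cells of the second library. Scrublet, a doublet caller, marked 2 dendritic cells, and 9 carried UMIs of another lineage (5 with collagen, 3 with T cell and 1 with endothelial transcripts). Both libraries of an arthritic pair carried neighbouring barcode tags whereas those of the healthy pair did not, so a processing batch cannot be told apart from the healthy genotype difference or from arthritis.

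Dendritic cells made up 0.941% of cells (95% exact binomial interval 0.610 to 1.39) in the arthritic Notch3-/- library and 1.79% (1.30 to 2.41) in the arthritic wild-type library. Their share was 1.55% (1.06 to 2.18) in the anti-Notch3 library and 0.658% (0.402 to 1.01) in the isotype library. It was 0.780% (0.555 to 1.06) in the healthy Notch3-/- and 0.994% (0.667 to 1.42) in the healthy wild-type library. Of all cells, the arthritic share was thus lower with the deletion and higher with the blocking antibody than in the library each was set against. Both directions turned round when the denominator was the class II-high cells with at most 1 Cd79a and Cd79b UMI, macrophages included. Of these cells 11% (7.26 to 15.8) were dendritic in arthritic Notch3-/- against 7.72% (5.64 to 10.3) in arthritic wild type, and 6.69% (4.62 to 9.32) with anti-Notch3 against 10.8% (6.69 to 16.1) with isotype. In healthy joints it was 6.85% (4.92 to 9.25) with Notch3-/- against 9.06% (6.15 to 12.8) in wild type. Depth bears on these shares, since a deep cell reaches 2 marker UMIs more readily. Cells with at least 2500 UMIs were thinned to that number and the shallower ones, 203 to 641 per library, left out. The shares were then 0.316% with Notch3-/- against 1.37% in wild type, 0.658% with anti-Notch3 against 0.377% with isotype, and 0.384% in healthy Notch3-/- against 0.258% in healthy wild type. The healthy pair therefore changed its order with thinning.

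**Figure D1:**
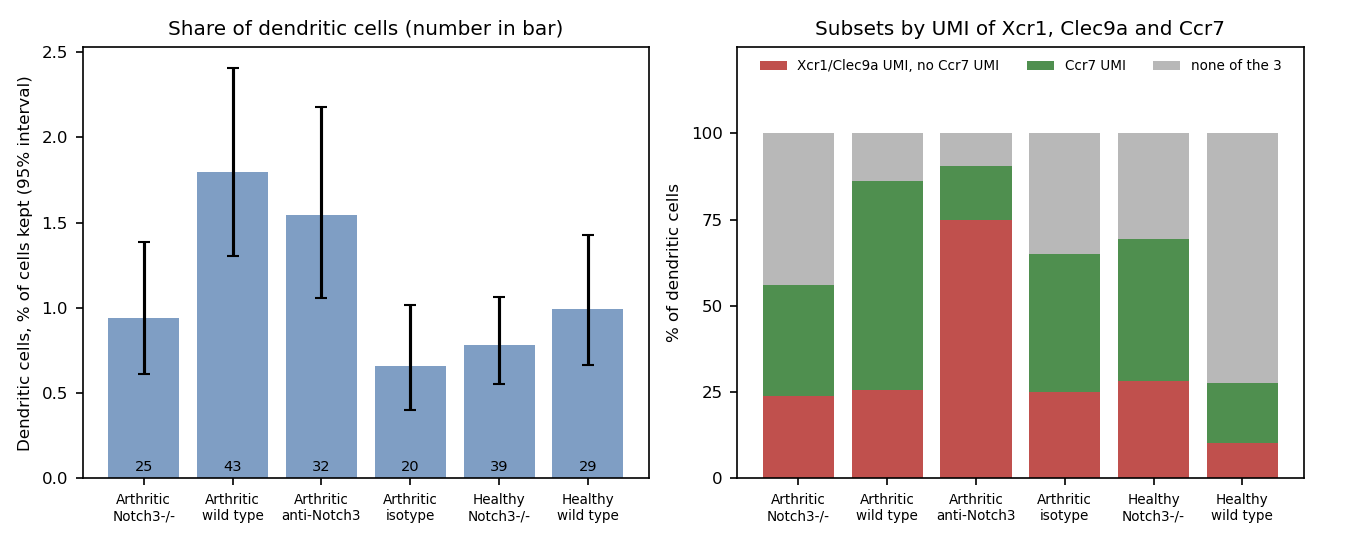
Left, dendritic cells as a percentage of the cells kept in each of the 6 libraries, with 95% exact binomial intervals and the number of cells in each bar; right, the percentage of those cells with a Xcr1 or Clec9a UMI and no Ccr7 UMI, with a Ccr7 UMI, or with none of the 3. The anti-Notch3 library had the highest Xcr1/Clec9a-positive share at 75%, and the healthy wild-type library the highest share with none of the 3 at 72.4%.

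Among the genes of the rule, Flt3, the receptor for the growth factor that sustains dendritic cells, was the most widely detected. It had a UMI in 119 of 188 cells (63.3%), against 0.0959% of 10433 fibroblast-like cells, which should lack it. Ccr7 was seen in 68 cells (36.2%), against 0.153% of fibroblast-like cells. Xcr1, a chemokine receptor of cDC1, was seen in 43 cells (22.9%), and Clec9a, their receptor for dead cells, in 44 cells (23.4%). Zbtb46, a transcription factor of conventional dendritic cells, was seen in 41 cells (21.8%), against 1.40% of fibroblast-like cells. Median depth was 6580.5 UMIs in dendritic and 5723 in fibroblast-like cells. Cells with UMIs of both genes of a pair numbered 26 for Xcr1 and Clec9a, 29 for Flt3 and Ccr7, 24 for Flt3 and Zbtb46, 22 for Flt3 and Clec9a, 18 for Flt3 and Xcr1, and 11 each for Zbtb46 with Ccr7 and with Xcr1. Zbtb46 and Clec9a were seen together in 8 cells, and Xcr1 and Ccr7 in 1. These genes chose the cells, and a gene without a UMI in a cell may still be expressed there.

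Cells on both sides of the threshold differed in several genes outside the rule. Class II-high cells with no marker UMI (940 cells) had summed levels of 6565 CPM (UMIs of a gene scaled to a common total per sum) for Cst3, which encodes cystatin C, and 9124 CPM for Lyz2, the lysozyme gene of myeloid cells. Just outside the rule, the 227 cells with 1 marker UMI had 9836 CPM Cst3 and 4563 CPM Lyz2. Just inside, the 80 cells with 2 UMIs had 12652 CPM Cst3 and 3846 CPM Lyz2. With 4 or more UMIs (74 cells), Cst3 stood at 19273 CPM and Lyz2 at 1202 CPM. Along this series Cst3 climbed and Lyz2 declined, while other genes took no such even course. Fscn1, an actin-bundling gene of mature dendritic cells, stood at 7.75 CPM with 0, 2.07 with 1, 3.49 with 2, 99.9 with 3 and 785 with 4 or more marker UMIs. Cd209a, a lectin gene, stood at 884, 1150, 759, 439 and 180 CPM in the same order. Median depth was 5815 UMIs with 1 marker UMI and 6805.5 with 2.

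The chosen cells were set against the 940 class II-high cells with none of the 5 markers, in all 6 libraries. These comparison cells had a median of 4633.5 UMIs. Genes outside the rule were tested on summed counts with the library as a block, which describes the chosen cells and supports nothing about how they were chosen. edgeR called 357 of 4702 genes higher (7.59%) and 329 lower (7.0%) at a Benjamini-Hochberg adjusted p under 0.05. Most tested genes of the migratory and cDC1 lists and 8 of 15 of the dendritic lineage list were higher, most macrophage, monocyte and fibroblast genes were lower, and most cDC2 genes did not pass in either direction.

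Of the genes listed for the dendritic lineage in general, 8 of 15 tested were higher and 0 lower, or 1 lower without the arthritic wild-type library, with a median log2 fold change of 0.82 beside 0.00 over all tested genes. Cst3 ranged from 10498 to 21517 CPM in dendritic cells (median 15500) and from 3154 to 8798 CPM in the marker-negative cells (median 7165), so the groups did not overlap. Its log2 fold change was 1.46 (SE 0.16, edgeR adjusted p = 4.66e-05, higher in 6 of 6 libraries). Irf8, the transcription factor that specifies cDC1, ranged from 253 to 741 CPM in dendritic cells (median 433) against 17.9 to 164 CPM (median 74.9) in marker-negative cells. It was higher by 2.84 on the log2 scale (SE 0.24, edgeR adjusted p = 5.17e-06, 6 of 6 libraries). Btla, an inhibitory receptor, was higher by 3.17 (SE 0.40, edgeR adjusted p = 1.36e-04), and Tbc1d4, a regulator of vesicle transport, by 3.46 (SE 0.24, edgeR adjusted p = 7.99e-07), each in 6 of 6 libraries. Several textbook genes did not pass the test: Itgax, which encodes CD11c, had a log2 fold change of -0.26 (edgeR adjusted p = 0.632), and Irf4, the factor of cDC2, one of -0.74 (edgeR adjusted p = 0.218).

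Of 14 tested cDC1 genes 13 were higher and 0 lower, with a median log2 fold change of 1.83. Beside Irf8 they included Cadm1, an adhesion molecule, at 2.30 (edgeR adjusted p = 2.21e-04), Wdfy4, needed for cross-presentation, at 2.01 (edgeR adjusted p = 1.95e-04), and Ppt1, a lysosomal thioesterase, at 1.81 (edgeR adjusted p = 1.21e-05). All 3 were higher in 6 of 6 libraries. Batf3, the partner of IRF8, had a log2 fold change of 0.39 that did not pass (edgeR adjusted p = 0.457). Of 14 cDC2 genes 1 was higher and 4 were lower (median -0.59); 2 were higher without the arthritic wild-type, anti-Notch3 or healthy Notch3-/- library, and 8 lower at a marker sum of at least 3. Mgl2, a lectin of cDC2, had -0.58 (edgeR adjusted p = 0.147) and Sirpa, the receptor for CD47, -0.78 (edgeR adjusted p = 0.0636). The rule contains the cDC1 genes Xcr1 and Clec9a and no gene of cDC2, which bears on both counts.

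The migratory list had the most calls, 20 of 23 tested genes higher and 0 lower, with a median of 2.28. The rule contains Ccr7 and the marker-negative cells had no Ccr7 UMI, which bears on this count. Summed migratory genes reached 8754 to 29099 CPM per library in dendritic cells with a Ccr7 UMI. They reached 822 to 2576 CPM in those with Xcr1 or Clec9a and no Ccr7 UMI, and 1838 to 3049 CPM in those with none of the 3. Marker-negative cells had 1287 to 3336 CPM. Fscn1, the actin-bundling protein of dendrites, ranged from 89.4 to 758 CPM (median 242) against 0 to 26.9 CPM (median 5.04) in marker-negative cells. It was higher by 5.45 (SE 0.46, edgeR adjusted p = 5.17e-06, 6 of 6 libraries). Ccl22, a chemokine that draws CCR4-bearing T cells, ranged from 105 to 2247 CPM (median 576) against 1.28 to 166 CPM in marker-negative cells (median 52.2), with a log2 fold change of 3.84 (SE 0.46, edgeR adjusted p = 8.92e-05). Ccl5, a chemokine for effector T cells and monocytes, ranged from 225 to 2563 CPM (median 1705) against 0 to 328 CPM in marker-negative cells (median 86.1), with a log2 fold change of 4.36 (SE 0.66, edgeR adjusted p = 5.04e-04). Both were higher in 6 of 6 libraries, with overlapping ranges. Ccl17, which shares a receptor with Ccl22, did not pass (0.75, edgeR adjusted p = 0.484, higher in 4 of 6 libraries).

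Antigen presentation genes moved in part. For class II, 2 of 9 tested genes were higher and 2 lower, or 1 lower without any 1 of the 4 arthritic libraries. H2-Oa and H2-Ob, the chains of the DO molecule that restrains peptide loading, were higher by 1.68 (SE 0.19, edgeR adjusted p = 5.42e-05) and 1.52 (SE 0.17, edgeR adjusted p = 6.30e-05) in 6 of 6 libraries. H2-Eb1, a class II chain, had a log2 fold change of 0.31 (edgeR adjusted p = 0.0791); both groups were selected for class II RNA. For class I, 5 of 9 were higher and 0 lower, and 3 were higher without the arthritic wild-type library, with DESeq2 or with no filter on low counts. Psmb9 and Psmb8, subunits of the immunoproteasome, were higher by 1.33 (edgeR adjusted p = 1.84e-05) and 1.05 (edgeR adjusted p = 1.84e-05), each in 6 of 6 libraries. Of 7 costimulatory genes 5 were higher, and 3 were higher without the arthritic wild-type, the isotype or the healthy Notch3-/- library. Cd40, which receives the T cell signal CD40 ligand, was higher by 1.59 (SE 0.29, edgeR adjusted p = 0.00184) and Cd83, which stabilizes class II at the surface, by 0.90 (SE 0.10, edgeR adjusted p = 6.73e-05). The inflammatory cytokine chain gene Il12b had 64 UMIs in dendritic cells against 0 in marker-negative cells, at least 78.4-fold higher against a floor of 3 UMIs over the group; its call was lost with DESeq2.

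Of 13 tested macrophage genes 12 were lower and 0 higher (median -2.09), as were 6 of 8 monocyte genes (median -1.52). Lyz2 ranged from 659 to 3792 CPM in dendritic cells (median 2798) against 7129 to 12980 CPM in marker-negative cells (median 9805), and was lower (log2 fold change -2.10, SE 0.25, edgeR adjusted p = 8.92e-05, 6 of 6 libraries). Csf1r, the receptor for the macrophage growth factor, ranged from 11.9 to 58.3 CPM against 80.4 to 262 CPM in marker-negative cells (log2 fold change -2.15, SE 0.26, edgeR adjusted p = 9.80e-05, 6 of 6). Both genes separated the groups without overlap. Of 11 chemokine genes 3 were higher (Ccl5, Ccl22 and Cxcl16) and 4 lower (Cxcl2, Ccl6, Ccl2 and Ccl9), with the same counts whichever library was left out, and 5 and 6 with no filter on low counts. Ccl6 was lower too (log2 fold change -2.19, SE 0.13, edgeR adjusted p = 2.19e-07, 6 of 6 libraries). All 4 tested neutrophil genes were lower, 2 without the arthritic Notch3-/- or the arthritic wild-type library and 1 with DESeq2, and the neutrophil list summed to 6091 CPM in the marker-negative cells of the arthritic Notch3-/- library and 2149 CPM in those of the arthritic wild-type library, whereas dendritic cells had 0 to 64.1 CPM per library; its part in the result was not tested.

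**Figure D2:**
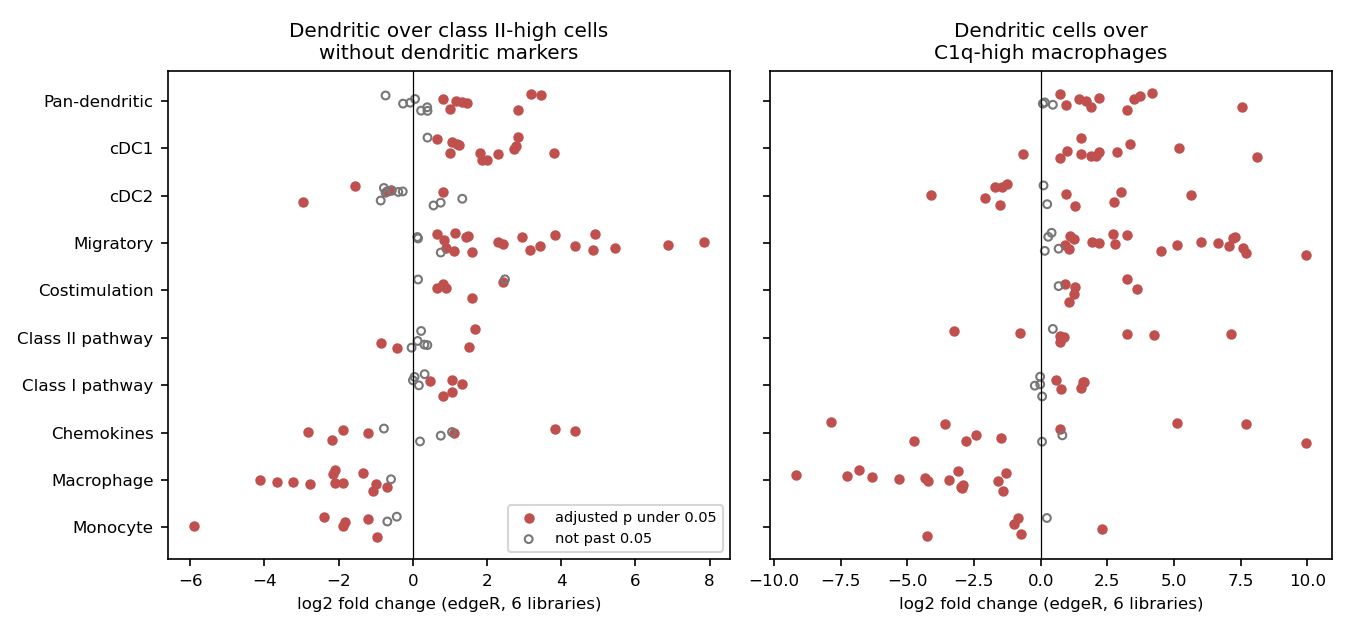
Each point is 1 gene of a list on the left axis, placed by its log2 fold change in dendritic cells over class II-high cells without the 5 markers (left) and over C1q-high macrophages (right), edgeR, 6 libraries; filled points passed an adjusted p of 0.05, and points of genes with no UMI on one side depend on the prior count. Migratory and cDC1 genes lie mostly right of 0 and macrophage genes left of it in both panels.

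Against 816 C1q-high macrophages, which have 10 or more UMIs of C1qa and C1qb (median depth 4142 UMIs), edgeR called 1424 of 4050 genes (35.2%), 674 higher in dendritic cells (16.6%) and 750 lower (18.5%). Of 14 dendritic lineage genes 11 were higher and 0 lower (median 1.79, beside 0.00 over all tested). Here Itgax was higher (1.45, edgeR adjusted p = 0.00635, 5 of 6 libraries), as was Bcl11a, a factor of dendritic and B cell development (4.17, edgeR adjusted p = 3.13e-05, 6 of 6). Of 9 class II genes 6 were higher and 2 lower. H2-Oa ranged from 44.9 to 206 CPM in dendritic cells against 0 to 4.07 CPM in macrophages (7.12, SE 0.42, edgeR adjusted p = 6.34e-09, 6 of 6). Of 23 migratory genes 19 were higher and 0 lower (median 2.79). The macrophages were chosen without a UMI of Ccr7 or the other dendritic markers, which bears on this count. Ccl17 ranged from 7.68 to 2299 CPM in dendritic cells against 0 to 1.21 CPM in macrophages (9.97, SE 0.42, edgeR adjusted p = 1.54e-10, 6 of 6).

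The macrophage side of that comparison was as one-sided: 15 of 15 tested macrophage genes were lower in dendritic cells (median -3.44). The macrophages were chosen for high C1qa and C1qb and the dendritic cells for low, and the list holds the related gene C1qc. This choice bears on the count. Apoe, the lipid carrier, ranged from 7.77 to 414 CPM in dendritic cells against 6327 to 32056 CPM in macrophages (log2 fold change -7.27, SE 0.45, edgeR adjusted p = 1.03e-08, lower in 6 of 6 libraries). Pf4, a chemokine of tissue macrophages, ranged from 0 to 8.24 CPM in dendritic cells against 613 to 5617 CPM in macrophages (-9.89, SE 0.32, edgeR adjusted p = 7.37e-12, 6 of 6). Tlr7, the endosomal receptor for single-stranded RNA, had 0 UMIs in dendritic cells against 160 in macrophages, at least 18.3-fold lower. It was 1 of 6 of 7 pattern receptors called lower. Of 16 genes listed for the stress of tissue dissociation 12 were lower and 1 higher, or 7 lower without the healthy Notch3-/- library.

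Marker lists of other cells bear on the label. In dendritic cells 7 of 7 mast cell and basophil genes were at 0 UMIs, as they were in marker-negative cells and macrophages. Of 11 B cell genes 6 were at 0 in dendritic cells, 4 in marker-negative cells and 6 in macrophages. All 3 populations were chosen for at most 1 UMI of Cd79a and Cd79b, which bears on the B cell genes. Summed macrophage genes reached 1013 to 4958 CPM per library in dendritic cells, against 8534 to 18534 CPM in marker-negative cells and 27939 to 68465 CPM in macrophages, and Mertk was at 0. Fibroblast genes summed to 103 to 1390 CPM in dendritic cells against 1110 to 6974 CPM in marker-negative cells and 303 to 3823 CPM in macrophages. Of 8 tested fibroblast genes 7 were lower in dendritic than in marker-negative cells and 0 higher (median -2.07), and 4 were lower than in macrophages; the part of this RNA in both comparisons was not tested. T, NK and innate lymphoid genes summed to 64.1 to 214 CPM in dendritic cells. Genes of plasmacytoid dendritic cells, the interferon-producing relatives, summed to 423 to 1742 CPM; 0 of 6 tested passed against marker-negative cells (edgeR), while Siglech, their surface lectin, had 25 UMIs in 1 cell of the healthy wild-type library.

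Split by their own marker UMIs, 60 dendritic cells had Xcr1 or Clec9a and no Ccr7, 68 had Ccr7, and 60 had none of the 3. Median depth was 6985.5, 5476.5 and 6911 UMIs in the 3 subsets in that order. The Xcr1/Clec9a-positive share was 24.0% in arthritic Notch3-/- against 25.6% in arthritic wild type. It was 75% (56.6 to 88.5) with anti-Notch3 against 25% (8.66 to 49.1) with isotype. In healthy joints it was 28.2% (15 to 44.9) with Notch3-/- against 10.3% (2.19 to 27.4) in wild type. Thinned to 2500 UMIs, it was 13% in arthritic Notch3-/- against 16.7% in arthritic wild type, 50% with anti-Notch3 against 20.0% with isotype, and 12.8% in healthy Notch3-/- against 10.3% in healthy wild type. At a marker sum of at least 3 the healthy values were 35.0% with Notch3-/- against 27.3% in wild type. The Ccr7-positive share was 32.0% (14.9 to 53.5) in arthritic Notch3-/- against 60.5% (44.4 to 75.0) in arthritic wild type. It was 15.6% (5.28 to 32.8) with anti-Notch3 against 40.0% (19.1 to 63.9) with isotype. In healthy joints it was 41.0% (25.6 to 57.9) with Notch3-/- against 17.2% (5.85 to 35.8) in wild type. Thinned to 2500 UMIs, the healthy values were 33.3% and 10.3%. The cells with none of the 3 genes were most frequent in healthy wild type, at 72.4% (52.8 to 87.3), or 36.4% (4 of 11 cells, 10.9 to 69.2) at a marker sum of at least 3.

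Set against each other, the Xcr1/Clec9a-positive cells carried more RNA of cDC1 genes and the cells with none of the 3 more of cDC2 genes. The split itself used the cDC1 genes Xcr1 and Clec9a, which bears on the counts of both lists. Both kinds of cell could be compared in 4 libraries with at least 5 cells of each kind, the arthritic Notch3-/-, arthritic wild-type, isotype and healthy Notch3-/- libraries. edgeR called 81 of 948 genes (8.54%), 32 higher in Xcr1/Clec9a-positive cells (3.38%) and 49 lower (5.17%). Irf8 stood at 1202, 929, 1382 and 987 CPM in Xcr1/Clec9a-positive cells against 128, 263, 47.6 and 0 CPM in the cells with none, in the order just given. It was higher in 4 of 4 libraries without overlap (3.50, SE 0.48, edgeR adjusted p = 5.13e-05). Ppt1 (2.89, SE 0.33, edgeR adjusted p = 6.09e-06), Cd24a, a sialoglycoprotein of cDC1 (2.90, SE 0.37, edgeR adjusted p = 2.50e-05), and Naaa, a lysosomal amidase (1.81, SE 0.29, edgeR adjusted p = 3.12e-04), were also higher in 4 of 4. Of 11 cDC1 genes 7 were higher and 0 lower (median 2.29, beside -0.06 over all tested); 4 were higher without the arthritic Notch3-/- or the healthy Notch3-/- library.

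Of 8 cDC2 genes 5 were lower and 0 higher (median -2.59); 1 was lower without the arthritic Notch3-/- library, and 3 without the healthy Notch3-/- library or with DESeq2. Cd209a, a lectin of cDC2 and monocyte-derived cells, stood at 85.9, 0, 0 and 27.8 CPM in Xcr1/Clec9a-positive cells against 1473, 239, 951 and 1580 CPM in the cells with none (log2 fold change -5.38, SE 0.47, edgeR adjusted p = 4.56e-07, 4 of 4). The groups did not overlap. Mgl2 followed (-5.84, SE 0.52, edgeR adjusted p = 4.56e-07, 4 of 4). Summed cDC2 genes reached 2225 to 6806 CPM per library in the cells with none. This overlapped marker-negative cells (2011 to 4497 CPM) and C1q-high macrophages (1874 to 4080 CPM), so the list did not set the cells with none apart from those. Summed macrophage genes reached 999 to 7393 CPM in the cells with none, against 873 to 3821 CPM in Xcr1/Clec9a-positive cells. S100a4, a calcium-binding protein of motile myeloid cells, was lower (log2 fold change -2.80, SE 0.31, edgeR adjusted p = 5.63e-06, 4 of 4), and Ctss, the protease that trims the class II invariant chain, as well (-1.44, SE 0.22, edgeR adjusted p = 1.47e-04, 4 of 4). Counts of calls in this comparison rested on few cells. Without the arthritic Notch3-/- library 9 genes were higher and 22 lower, without the arthritic wild-type library 19 and 41, without isotype 20 and 46, and without the healthy Notch3-/- library 12 and 26.

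Ccr7-positive cells carried more RNA of the migratory list than the other dendritic cells. The split itself used Ccr7, which maturing dendritic cells gain, and this bears on the count of migratory genes. In 6 libraries edgeR called 228 of 2054 genes higher (11.1%) and 166 lower (8.08%) against the other dendritic cells, among them 22 of 24 migratory genes higher and 0 lower (median 4.34, beside -0.06 over all tested). In the order arthritic Notch3-/-, arthritic wild type, anti-Notch3, isotype, healthy Notch3-/- and healthy wild type, Fscn1 stood at 837, 506, 1009, 2327, 1592 and 552 CPM in Ccr7-positive cells against 0, 0, 0, 0, 6.79 and 4.60 CPM in the others. It was higher by 8.26 (SE 0.37, edgeR adjusted p = 2.79e-12, 6 of 6 libraries). Ccl5 stood at 2721, 3922, 11504, 6501, 6230 and 1304 CPM in Ccr7-positive cells against 0, 0, 0, 171, 13.6 and 27.6 CPM in the others (7.59, SE 0.46, edgeR adjusted p = 1.38e-10, 6 of 6). Ccl22 stood at 3558, 659, 2269, 2479, 5459 and 552 CPM in Ccr7-positive cells against 35.4, 7.69, 67.9, 0, 13.6 and 23.0 CPM in the others (6.26, SE 0.35, edgeR adjusted p = 4.23e-11, 6 of 6). None of the 3 genes overlapped between the groups.

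Ccl17 was less even. It stood at 5605, 15.3, 126, 632, 5595 and 376 CPM in Ccr7-positive cells against 79.6, 0, 27.2, 0, 6.79 and 147 CPM in the others, in the same order (4.85, SE 0.66, edgeR adjusted p = 1.71e-05, 6 of 6). The arthritic wild-type library had the lowest Ccr7-positive level and both Notch3-/- libraries the highest. Il4i1, an enzyme that degrades aromatic amino acids (7.34, SE 0.47, edgeR adjusted p = 3.61e-10), Cd63, an endosomal tetraspanin (5.21, SE 0.28, edgeR adjusted p = 3.30e-11), and Cd40 (2.83, SE 0.41, edgeR adjusted p = 3.96e-05) were higher in 6 of 6. Of 8 costimulatory genes 7 were higher and 0 lower, but 2 without the arthritic wild-type library and 4 without anti-Notch3, isotype or healthy Notch3-/-.

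A minority of the antigen presentation genes passed. For class I, 3 of 8 genes were higher and 0 lower, or 1 lower without anti-Notch3 or healthy wild type. They included B2m, the light chain (1.07, SE 0.13, edgeR adjusted p = 5.26e-06, 6 of 6), and H2-K1, a heavy chain that resembles other class I genes (1.16, SE 0.16, edgeR adjusted p = 2.03e-05, 6 of 6). For class II, 1 of 9 was higher and 3 lower, and 0 were higher without anti-Notch3 or isotype. H2-DMa, a chain of the peptide-loading DM molecule, stood at 721, 429, 441, 430, 488 and 1129 CPM in Ccr7-positive cells against 1513, 1177, 1698, 1649, 1534 and 1775 CPM in the others (log2 fold change -1.39, SE 0.18, edgeR adjusted p = 1.34e-05, lower in 6 of 6). H2-DMb1, its partner, was lower too (-1.19, SE 0.16, edgeR adjusted p = 1.69e-05, 6 of 6). Of 11 cDC1 genes 9 were lower and 0 higher (median -2.44), or 14 lower with no filter on low counts, with Naaa at 0 to 78.1 CPM in Ccr7-positive cells against 501 to 831 CPM in the others (log2 fold change -4.17, SE 0.35, edgeR adjusted p = 2.51e-08, 6 of 6). The others include the cells chosen for Xcr1 or Clec9a, which bears on the cDC1 count. Summed cDC1 genes reached 4648 to 7687 CPM per library in those Xcr1/Clec9a-positive cells. In Ccr7-positive cells they reached 326 to 1138 CPM, which overlapped the cells with none of the 3 genes (653 to 1531 CPM).

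Of 5 tested proliferation genes 4 were lower in Ccr7-positive cells and 0 higher (median -4.44, or -3.20 with genes without UMIs set at their bound), or 2 with DESeq2, 0 at a marker sum of at least 3 and 8 with no filter on low counts. Ube2c, which drives exit from mitosis, had 0 UMIs in Ccr7-positive cells against 87 in the others, at least 12.3-fold lower. Il7r, the interleukin 7 receptor shared with T cells, was higher (1.76, SE 0.36, edgeR adjusted p = 0.00117, 6 of 6 libraries); summed T, NK and innate lymphoid genes reached 63.0 to 727 CPM in Ccr7-positive cells against 0 to 125 CPM in Xcr1/Clec9a-positive cells and 45.1 to 239 CPM in those with none, and their part in this result was not tested.

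**Figure D3:**
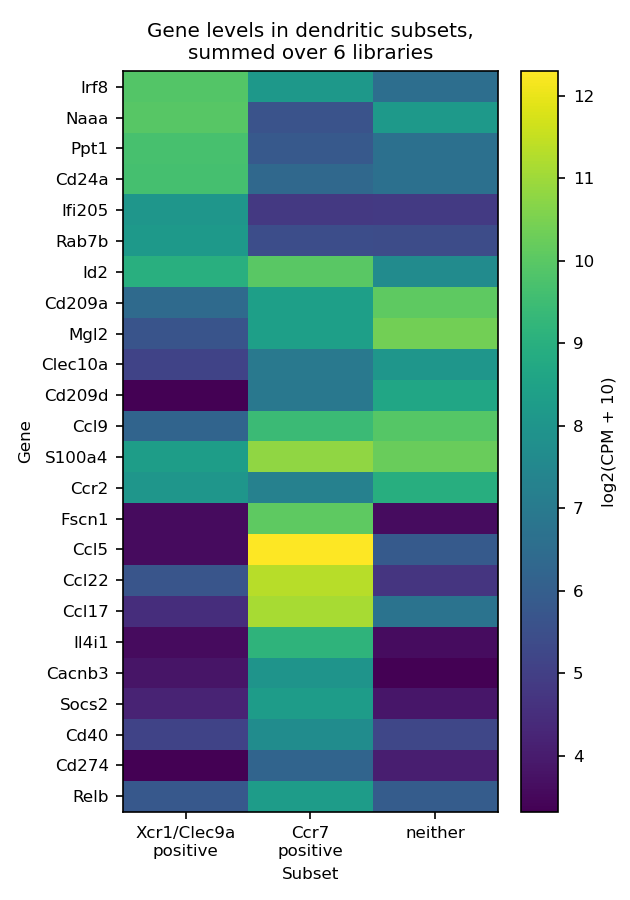
Heat map of log2(CPM + 10) of 24 genes (rows) in the 3 dendritic subsets (columns), each summed over 6 libraries. The libraries enter unevenly, so subset and library are mixed in the columns. Anti-Notch3 gave 202453 of 477534 UMIs in the Xcr1/Clec9a column, and healthy wild type 177371 of 432985 in the column with neither marker. Irf8 to Id2 are brightest on the left except Id2, which is brighter in Ccr7-positive cells; Cd209a to Ccr2 are brightest in the cells with neither marker except S100a4; Fscn1 to Relb are brightest in Ccr7-positive cells.

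Nfkbia, Rel and Relb, which belong to the NF-kB system, a family of factors and inhibitors that controls maturation genes, were among the genes higher in Ccr7-positive cells; no list of NF-kB genes was tested, and Rel was chosen after its value was seen. Nfkbia, which encodes the inhibitor IkBa and is itself a known NF-kB target, stood at 2791, 1126, 2143, 961, 4248 and 2859 CPM in Ccr7-positive cells against 1080, 354, 693, 293, 984 and 883 CPM in the others, in the library order above. It was higher in every library (1.73, SE 0.14, edgeR adjusted p = 2.51e-08, 6 of 6). Rel, an NF-kB subunit, was higher by 1.38 (SE 0.24, edgeR adjusted p = 2.47e-04, 6 of 6) and Relb, another, by 2.68 (SE 0.31, edgeR adjusted p = 2.69e-06, 6 of 6). Cxcl1, a neutrophil chemokine, stood at 116, 23.0, 441, 25.3, 410 and 0 CPM in Ccr7-positive cells against 17.7, 0, 18.1, 12.2, 47.5 and 9.19 CPM in the others (3.17, SE 0.51, edgeR adjusted p = 1.25e-04, 5 of 6). Healthy wild type was the exception for Cxcl1.

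The promoters of Nfkbia and Cxcl1 are shown because both hold the kB motif, GGG, any 2 bases and TTTCC, searched on both strands, and both genes were called. Each window runs from 250 bases before to 50 bases after the start, from RefSeq on GRCm38.p6, 5' to 3' on the strand of the gene, with motif matches in capitals. The Nfkbia window is chr12:55492598-55492897 on the minus strand, with 1 match 29 bases before the start. The Cxcl1 window is chr5:90890995-90891294 on the plus strand, with 2 matches 89 and 71 bases before the start that do not overlap.
Nfkbia: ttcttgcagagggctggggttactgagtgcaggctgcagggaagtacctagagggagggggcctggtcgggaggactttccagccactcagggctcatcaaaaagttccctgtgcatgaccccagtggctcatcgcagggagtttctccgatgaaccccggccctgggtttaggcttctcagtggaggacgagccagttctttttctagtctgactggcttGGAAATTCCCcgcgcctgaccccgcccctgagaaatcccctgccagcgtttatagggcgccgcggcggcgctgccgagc
Cxcl1: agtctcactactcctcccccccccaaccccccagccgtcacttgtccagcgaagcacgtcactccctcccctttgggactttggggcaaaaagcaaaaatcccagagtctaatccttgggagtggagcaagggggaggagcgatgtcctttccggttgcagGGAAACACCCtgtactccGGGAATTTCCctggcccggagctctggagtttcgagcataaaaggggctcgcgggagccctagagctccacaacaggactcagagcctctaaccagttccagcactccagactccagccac
The motif was in the windows of 15 of 179 genes higher in Ccr7-positive cells that had a window (8.38%), 6 of 127 genes lower (4.72%) and 512 of 27025 genes in all (1.89%). None of the 18 migratory genes with a window held it. A match describes letters only, and the motif was chosen after the values were seen.

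Notch3 itself had 0 UMIs in the dendritic cells of every library, which allows up to 2.31 CPM over all 6. Notch2, the family member that shapes splenic and intestinal dendritic cells in mice, stood at 38.5 CPM in arthritic Notch3-/- against 34.5 in arthritic wild type, 15.8 with anti-Notch3 against 16.5 with isotype, and 72.1 in healthy Notch3-/- against 31.1 in healthy wild type. Rbpj, the DNA-binding factor of Notch signalling, stood at 154 CPM in arthritic Notch3-/- against 76.8 CPM in arthritic wild type, 95 CPM with anti-Notch3 against 74.1 CPM with isotype, and 148 CPM in healthy Notch3-/- against 210 CPM in healthy wild type. Hes1, a common target, reached at most 32.1 CPM, and the targets Hey1 and Heyl were at 0.

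Across the 3 pairs of a Notch3-targeted library and its comparison, edgeR with the pair as a block called 0 of 3173 genes higher (0.0%) and 1 lower (0.0315%), with 186 at an unadjusted p under 0.05; DESeq2 called 0 and 2, with 55 under 0.05. The fit treats deletion and antibody as repeats of 1 effect. In every list the count of called genes was 0, including 23 tested migratory, 12 cDC1 and 12 cDC2 genes. Between arthritic and healthy genotype pairs edgeR called 1 of 3173 higher (0.0315%) and 0 lower (0.0%), with 146 at an unadjusted p under 0.05; DESeq2 called 0 and 0, with 54 under 0.05. Both calls were Ifitm1, an interferon-inducible membrane protein that restricts virus entry.

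Ifitm1 was present in the untargeted arthritic libraries and nearly absent elsewhere. It stood at 6.41 CPM in arthritic Notch3-/- dendritic cells (1 UMI) against 2575 CPM in arthritic wild type (671 UMIs). It stood at 15.8 CPM with anti-Notch3 (4 UMIs) against 1400 CPM with isotype (170 UMIs), and at 0 CPM in healthy Notch3-/- (0 UMIs) against 3.89 CPM in healthy wild type (1 UMI). A UMI was seen in 1 of 25 arthritic Notch3-/- cells against 32 of 43 arthritic wild-type cells, and in 3 of 32 anti-Notch3 cells against 11 of 20 isotype cells. In arthritic wild type these were 8 Xcr1/Clec9a-positive, 18 Ccr7-positive and 6 other cells, so the transcript was not limited to 1 subset. For Notch3 targeting the log2 fold change was -6.99 (SE 0.51, edgeR adjusted p = 0.00824, lower in 3 of 3 pairs). Over the edgeR and DESeq2 alternatives that tested Ifitm1, its adjusted p ran from 3.21e-30 to 0.0932. Without the arthritic genotype pair or without the antibody pair Ifitm1 was not among the genes tested. For arthritis the log2 fold change was 8.88 (SE 0.77, edgeR adjusted p = 0.0270, 2 of 2), a call that rests on the wild-type library. This call was lost with DESeq2 and at a marker sum of at least 3, and Ifitm1 was not tested without the antibody pair. The pattern was not particular to dendritic cells: marker-negative cells had 0 CPM in arthritic Notch3-/- against 1141 CPM in arthritic wild type and 17.5 CPM with anti-Notch3 against 746 CPM with isotype.

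Pair by pair, genes with at least 20 UMIs over both libraries were described by their ratio. In the arthritic genotype pair 138 of 2271 genes were at least 2-fold higher with Notch3-/- (6.08%) and 295 at least 2-fold lower (13%). In the antibody pair 130 of 2014 were higher with anti-Notch3 (6.45%) and 238 lower (11.8%). In the healthy pair 149 of 2786 were higher with Notch3-/- (5.35%) and 299 lower (10.7%). The medians over all genes were -0.09, -0.16 and -0.15 on the log2 scale.

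Interferon-response genes were high in arthritic wild-type dendritic cells. Summed over the list, they stood at 224 CPM in arthritic Notch3-/- against 2268 CPM in arthritic wild type. The sums were 344 CPM with anti-Notch3, 634 CPM with isotype, 268 CPM in healthy Notch3-/- and 221 CPM in healthy wild type. Of 6 such genes with enough UMIs 6 were at least 2-fold lower in arthritic Notch3-/- than in arthritic wild type (Irf7 and Isg15 among them, median log2 ratio -4.75). Isg15, a ubiquitin-like modifier, stood at 12.8 CPM in arthritic Notch3-/- (2 UMIs) against 706 CPM in arthritic wild type (184 UMIs, in 24 of 43 cells). It stood at 27.7 CPM with anti-Notch3 against 107 with isotype and at 12.0 CPM in healthy Notch3-/- against 19.4 in healthy wild type. Irf7, the factor that amplifies interferon, stood at 12.8 CPM in arthritic Notch3-/- against 737 CPM in arthritic wild type, 39.6 CPM with anti-Notch3 against 107 CPM with isotype, and 8.01 CPM in healthy Notch3-/- against 0 CPM in healthy wild type. The arthritic wild-type library stood apart from the other 5. It did so in macrophages as well, where Isg15 was at 4.07 CPM in arthritic Notch3-/- against 487 CPM in arthritic wild type. In the antibody pair 3 of 4 interferon genes were at least 2-fold lower and 1 higher, Cxcl10, a chemokine for activated T cells, at 115 CPM with anti-Notch3 against 8.24 CPM with isotype.

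The Isg15 promoter is shown for its matches to the interferon factor motif, GAAA, any 2 bases and GAAA, searched on both strands and chosen after the values were seen. The window, chr4:156200769-156201068 on the minus strand (RefSeq, GRCm38.p6, 5' to 3' on the strand of the gene), holds 3 overlapping matches, in capitals, that begin 78, 72 and 66 bases before the start.
Isg15: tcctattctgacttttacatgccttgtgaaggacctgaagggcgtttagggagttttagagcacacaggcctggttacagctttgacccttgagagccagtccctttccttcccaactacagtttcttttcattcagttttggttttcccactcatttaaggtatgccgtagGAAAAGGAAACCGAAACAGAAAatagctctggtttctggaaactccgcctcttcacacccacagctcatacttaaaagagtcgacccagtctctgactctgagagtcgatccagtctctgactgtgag
The motif was in the windows of 8 of 15 genes of the interferon list that had one (53.3%), against 1079 of 27025 genes in all (3.99%).

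Genes of the monocyte list differed in both directions. Plac8 stood at 32.1 CPM in arthritic Notch3-/- against 1378 CPM in arthritic wild type, 127 CPM with anti-Notch3 against 453 CPM with isotype, and 8.01 CPM in healthy Notch3-/- against 120 CPM in healthy wild type. Ly6c2, the surface marker of inflammatory monocytes, stood at 6.41 CPM in arthritic Notch3-/- against 376 CPM in arthritic wild type (98 UMIs, in 11 of 43 cells), and was at 0 in both antibody libraries. Ccr2, the chemokine receptor that brings monocytes out of the bone marrow, went the other way in arthritis. It stood at 295 CPM in arthritic Notch3-/- against 69.1 CPM in arthritic wild type, 317 CPM with anti-Notch3 against 90.6 CPM with isotype, and 276 CPM in healthy Notch3-/- against 633 CPM in healthy wild type. Of 5 monocyte genes 3 were at least 2-fold lower and 1 higher in arthritic Notch3-/-. Summed monocyte genes were highest in arthritic wild type in dendritic cells, at 2978 CPM against 724 CPM in arthritic Notch3-/-. Arthritic wild type was also highest in marker-negative cells, at 7030.5 CPM against 1911.5 CPM, and in macrophages, at 3449 CPM against 1741 CPM. Whether fewer monocyte-like cells within the rule or less RNA per cell gave the dendritic values cannot be told apart in sums. In the other direction, 5 of 11 cDC2 genes were at least 2-fold higher and 1 lower in arthritic Notch3-/-. Cd209a stood at 859 CPM in arthritic Notch3-/- against 119 CPM in arthritic wild type. Mgl2 stood at 692 CPM in arthritic Notch3-/- against 119 CPM in arthritic wild type. Cells with none of Xcr1, Clec9a and Ccr7 made up 44.0% (11 of 25 cells) in arthritic Notch3-/- against 13.95% (6 of 43 cells) in arthritic wild type. Within those cells, summed cDC2 genes reached 4868 CPM in arthritic Notch3-/- against 2225 CPM in arthritic wild type. The parts of makeup and of levels within cells in the cDC2 difference were not tested.

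**Figure D4:**
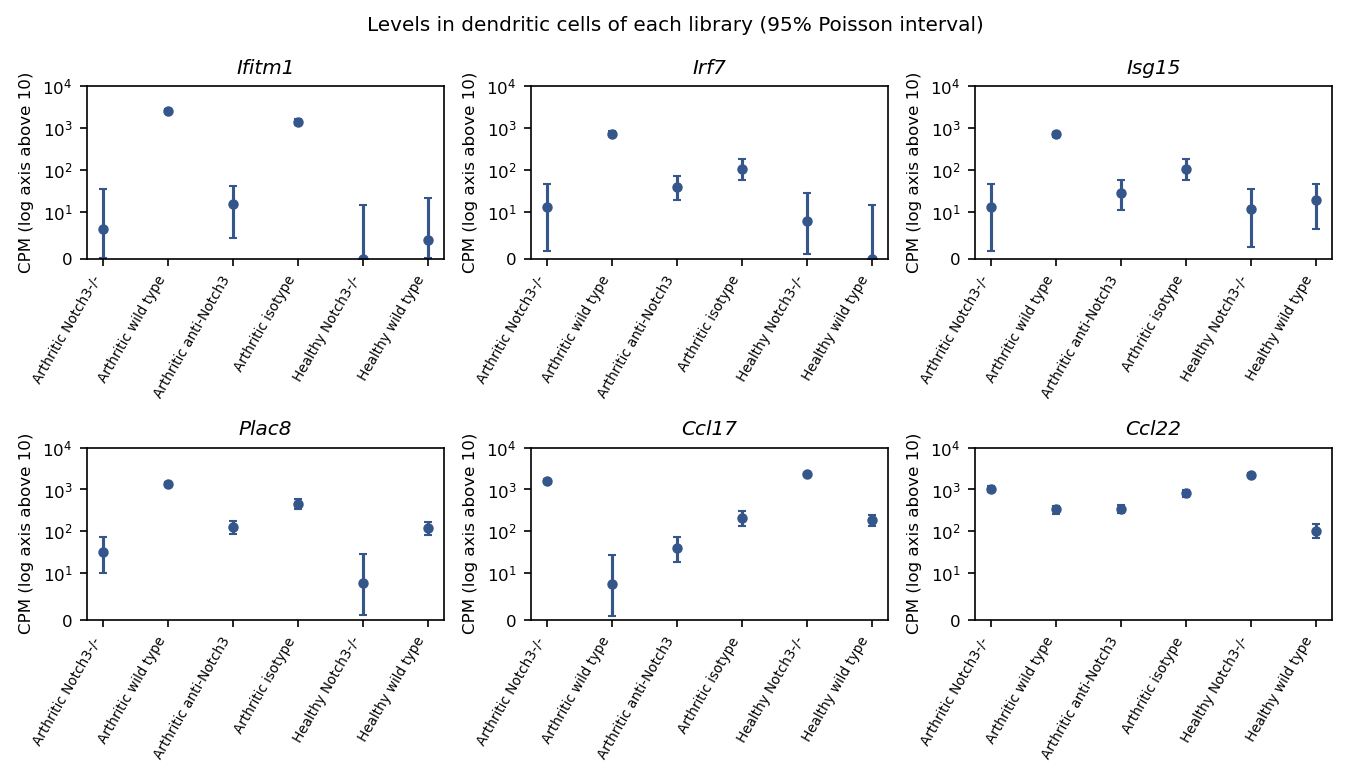
Level of 6 genes in the dendritic cells of each library in CPM (log axis above 10, linear below) with 95% Poisson intervals. Ifitm1, Irf7, Isg15 and Plac8 are highest in arthritic wild type, with isotype next, and Ccl17 and Ccl22 are highest in healthy Notch3-/-, with arthritic Notch3-/- next.

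In healthy joints the migratory genes separated the pair, with 17 of 20 at least 2-fold higher in Notch3-/- and 0 lower (median log2 ratio 1.61). Ccl22 stood at 2247 CPM in healthy Notch3-/- against 105 CPM in healthy wild type. Ccl5 stood at 2563 CPM in healthy Notch3-/- against 225 CPM in healthy wild type, and Fscn1 at 657 CPM in healthy Notch3-/- against 89.4 CPM in healthy wild type. The Ccr7-positive share was itself higher in the Notch3-/- library, at 41.0% (16 of 39 cells, 25.6 to 57.9) against 17.2% (5 of 29 cells, 5.85 to 35.8) in wild type. These intervals overlap. Within Ccr7-positive cells, summed migratory genes reached 29099 CPM in healthy Notch3-/- against 8754 CPM in healthy wild type. The parts of makeup and of levels within cells in the pair difference were not tested. Ccl17 stood at 2299 CPM in healthy Notch3-/- (574 UMIs in 11 cells, 254 of them in 1 cell) against 183 CPM in healthy wild type (47 UMIs in 7 cells). In arthritis it stood at 1603 CPM with Notch3-/- (250 UMIs in 10 cells, 150 of them in 1 cell) against 7.68 CPM in wild type (2 UMIs), and at 39.6 CPM with anti-Notch3 against 206 CPM with isotype. The other pairs did not show the healthy pattern, with 3 of 20 migratory genes at least 2-fold higher and 5 lower in arthritic Notch3-/- (median -0.26) and 1 of 18 higher and 7 lower with anti-Notch3 (median -0.71).

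The anti-Notch3 pair differed in cDC1 and heat-shock genes. Of 12 cDC1 genes 4 were at least 2-fold higher with anti-Notch3 and 0 lower, among them Wdfy4 at 210 CPM against 65.9 CPM with isotype, beside the higher Xcr1/Clec9a-positive share. Of 16 genes listed for the stress of tissue dissociation 4 were higher and 4 lower. The 4 lower ones were heat-shock genes, with Hspa1a, an inducible chaperone, at 2241 CPM with anti-Notch3 against 10041 CPM with isotype and Hspa1b at 218 CPM with anti-Notch3 against 1013 CPM with isotype. Hspa1b stood at 4.0 to 38.4 CPM in the other 4 libraries, below both antibody libraries. Summed dissociation stress genes stood at 10850 CPM with anti-Notch3 against 19951 CPM with isotype in dendritic cells. In marker-negative cells the sums were 14656 CPM with anti-Notch3 against 24486 CPM with isotype, and in macrophages 20072 CPM against 21132 CPM. The lower sum with anti-Notch3 was thus not particular to dendritic cells.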

How the data were processed

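Droplet libraries of dissociated synovium were processed with Cell Ranger 3.0.2 on mm10, per the submitters' processing notes. The deposited values are raw UMI counts per gene and cell, with 31017 genes. Cells with over 10% mitochondrial UMIs were left out, and doublets called by Scrublet were left out only in an alternative. Counts were summed per library and population; CPM divides by the summed UMIs. Populations with at least 10 cells and subsets with at least 5 cells in a library were tested with edgeR 4.0.16 (quasi-likelihood, TMM, filterByExpr, Benjamini-Hochberg over all genes tested, R 4.3.3), and with DESeq2 1.42.0 as an alternative. Pair ratios used a pseudocount of 0.5 UMIs. Shares have Clopper-Pearson and levels exact Poisson intervals, at 95%. Libraries are single pools, so p-values over libraries measure the spread between pools under different conditions. Named genes are members of 29 lists, up to 15 per direction with the largest log2 fold change among called genes of at least 50 UMIs and 1 direction in every library, the 10 smallest p-values for Notch3 and arthritis, and up to 5 per direction in each pair; Rel and the promoters shown were chosen after their values were seen. The cells, lists and tests were chosen with earlier results of these data known.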

Additional observations from a re-analysis of the deposited data

How the results depend on the processing

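Counts of called genes moved most with the filter on low counts, the model and the libraries entered. Without the filter 614 genes were lower against marker-negative cells, 1171 lower against macrophages, 9 higher and 11 lower with Notch3 targeting, and 22 higher and 11 lower in arthritis. With DESeq2 13 genes were higher and 28 lower in Xcr1/Clec9a-positive cells, 89 lower in Ccr7-positive cells, 2 lower with Notch3 targeting and 0 higher in arthritis. With a marker sum of at least 3, 106 genes were lower in Ccr7-positive cells, 0 lower with Notch3 targeting and 0 higher in arthritis, and the Xcr1/Clec9a comparison could not be fitted. Leaving out 1 library gave 9 to 20 genes higher and 22 to 46 lower in Xcr1/Clec9a-positive cells. Leaving out 1 pair gave 0 to 5 higher and 0 to 6 lower with Notch3 targeting, and 0 higher in arthritis without the antibody pair. Ifitm1 was not among the genes tested where either arthritic pair was left out. Signs turned for Camp (0.11 with DESeq2), Ngp (0.68 with DESeq2), Col1a2 (0.41) and Dcn (0.017) against marker-negative cells and Col1a2 (0.10) against macrophages, the last 3 values without cells with UMIs of another lineage; the cause was not tested. With a marker sum of at least 3 the dendritic share was 0.452% in arthritic Notch3-/-, 1.29% in arthritic wild type, 0.395% with isotype, 0.400% in healthy Notch3-/- and 0.377% in healthy wild type. Without cells of other lineages, which shrinks the denominator, the shares in the library order of the report were 3.16%, 3.72%, 3.47%, 2.85%, 2.94% and 3.10%. Thinned, they were 0.316% in arthritic Notch3-/-, 0.658% with anti-Notch3, 0.377% with isotype, 0.384% in healthy Notch3-/- and 0.258% in healthy wild type. The Xcr1/Clec9a-positive share thinned to 13% in arthritic Notch3-/-, 16.7% in arthritic wild type, 50% with anti-Notch3 and 12.8% in healthy Notch3-/-, and at a marker sum of at least 3 it was 27.3% in healthy wild type. The Ccr7-positive share at a marker sum of at least 3 was 58.3% in arthritic Notch3-/-, 60% in healthy Notch3-/- and 36.4% in healthy wild type. No paired analysis was possible because each group has 1 library, beyond the library and pair blocks already in the fits. With 20 to 43 dendritic cells per library, genes with few UMIs were not detectable as different at this depth.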

Other observations

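Dividing cells and histone genes were uneven among libraries. Mki67, a marker of dividing cells, stood at 12.8 CPM in arthritic Notch3-/- dendritic cells against 3.84 CPM in arthritic wild type, 3.96 CPM with anti-Notch3 against 24.7 CPM with isotype, and 20.0 CPM in healthy Notch3-/- against 128 CPM in healthy wild type. Top2a, which untangles DNA before division, stood at 44.1 CPM in healthy Notch3-/- against 159 CPM in healthy wild type. Of 8 proliferation genes with enough UMIs 1 was at least 2-fold higher and 4 were lower in healthy Notch3-/-. The histone gene Hist1h2ap had 0 UMIs in healthy Notch3-/- against 49 UMIs in healthy wild type, 42 of them in 1 cell.

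Fibroblast transcripts also varied: of 5 fibroblast genes 5 were at least 2-fold higher in healthy Notch3-/- and 4 higher with anti-Notch3, whereas 3 of 3 were lower in arthritic Notch3-/-. Col1a1, the main collagen chain, had 25 UMIs in healthy Notch3-/- (17 of them in 1 cell) against 0 in healthy wild type. Whether these transcripts come from the dendritic cells was not tested.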
